A study of Mus musculus with 6 samples.

Results

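The cyclin-dependent kinase inhibitor genes Cdkn1a, Cdkn1b, Cdkn1c, Cdkn2a, Cdkn2b, Cdkn2c, Cdkn2d and Cdkn3 were examined for 2 histone marks in mouse colonic organoids. The 8 genes were taken by name from 55341 gene symbols of the GENCODE annotation of GRCm38/mm10, 21924 of which are protein-coding, and all 8 were found. H3K4me3 and H3K27me3 had been measured by ChIP-seq in organoids of colonic epithelial cells from C57BL/6 mice, either untreated (wt) or kept with the cytokine TNFα at 40 ng/ml for 3 weeks (wt+TNFα). Each condition had 1 library for each mark and 1 input. Both conditions were labelled wt, with no engineered allele, and differed as labelled in TNFα alone. The labels do not say how many animals or cultures each library came from. No difference between the conditions has a replicate check, no p-value was computed, and the precision of a peak edge is unknown.

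Cyclin-dependent kinases, bound to cyclins, drive cells through the cell cycle, in part by phosphorylating the retinoblastoma protein and so releasing E2F factors. The CIP/KIP inhibitors p21 (Cdkn1a), p27 (Cdkn1b) and p57 (Cdkn1c) bind a range of cyclin-CDK complexes. The INK4 inhibitors p16Ink4a (Cdkn2a), p15Ink4b (Cdkn2b), p18Ink4c (Cdkn2c) and p19Ink4d (Cdkn2d) bind CDK4 and CDK6. Cdkn2a also encodes p19Arf, an unrelated protein made from another first exon, which restrains Mdm2 and so stabilises p53. Cdkn3 encodes a phosphatase that acts on cyclin-dependent kinases. H3K4me3 is found at the starts of active or poised genes, and H3K27me3 is the mark that Polycomb complexes place over silenced genes, among which Cdkn2a is a classic target. The question of the comparison was which of these genes carried either mark, and what differed after TNFα.

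The 4 peak lists held 11552 (wt) and 11894 (wt+TNFα) H3K4me3 peaks, and 30594 and 60540 H3K27me3 peaks. On the autosomes, wt H3K27me3 covered 101 Mb and wt+TNFα H3K27me3 228 Mb. The stated calling cutoff for H3K27me3 was a −log10 q of 2. The deposited value reached 2 at 12.8% of the wt and 19.5% of the wt+TNFα H3K27me3 peaks, so most peaks counted here had a lower one. These lists were called as broad regions, and the deposited q may be an average over the region. A value below 2 therefore need not mean that a peak missed the calling cutoff. On chromosome X the H3K27me3 lengths were 0.597 Mb and 74.7 Mb, and 3 and 0 H3K4me3 peaks lay on chromosome Y. Whether both cultures came from animals of the same sex was not tested. All 8 genes are autosomal, but a difference of donor animal, if present, could not be told apart from TNFα at them either. H3K4me3 was called at the promoters of 10 of 10 markers of intestinal epithelium in wt and 9 of 10 in wt+TNFα, where Krt20, a keratin of differentiated colonocytes, had no peak. None of 5 immune, 5 fibroblast, 5 endothelial and 3 muscle markers had an H3K4me3 peak in either condition.

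The starts of Cdkn2a, Cdkn2b and Cdkn1a are shown first, since the marks differed between the starts of Cdkn2a and of Cdkn1a, and Cdkn2b lies next to Cdkn2a. Each sequence is the RefSeq promoter window of GRCm38.p6, 250 bases before to 50 bases after the RefSeq start, 5′ to 3′ on the strand of the gene, with CpG dinucleotides in capitals. The table gave 10 such windows for 7 of the 8 genes, and Cdkn1c had none.
Cdkn2a, start of p19Arf, minus strand, chr4:89294570-89294869: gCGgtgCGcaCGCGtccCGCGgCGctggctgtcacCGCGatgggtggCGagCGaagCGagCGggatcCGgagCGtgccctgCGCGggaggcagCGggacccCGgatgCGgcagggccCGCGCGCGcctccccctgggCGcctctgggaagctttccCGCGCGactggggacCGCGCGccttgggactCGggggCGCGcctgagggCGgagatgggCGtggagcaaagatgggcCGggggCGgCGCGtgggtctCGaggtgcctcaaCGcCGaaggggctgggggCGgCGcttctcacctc
Cdkn2a, start of p16Ink4a, minus strand, chr4:89282143-89282442: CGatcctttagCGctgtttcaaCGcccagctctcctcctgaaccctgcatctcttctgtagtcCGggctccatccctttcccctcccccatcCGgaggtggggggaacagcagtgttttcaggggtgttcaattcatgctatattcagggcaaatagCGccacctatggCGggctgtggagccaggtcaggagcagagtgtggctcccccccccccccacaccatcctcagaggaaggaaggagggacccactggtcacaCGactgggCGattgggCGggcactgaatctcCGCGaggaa
Cdkn2b, minus strand, chr4:89310983-89311282: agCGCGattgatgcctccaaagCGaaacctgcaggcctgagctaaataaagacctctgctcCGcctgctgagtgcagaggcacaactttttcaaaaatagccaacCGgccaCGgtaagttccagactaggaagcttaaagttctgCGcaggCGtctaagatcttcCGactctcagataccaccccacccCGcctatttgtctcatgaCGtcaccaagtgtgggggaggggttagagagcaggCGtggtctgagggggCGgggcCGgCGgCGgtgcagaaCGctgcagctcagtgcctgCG
Cdkn1a, upstream start, plus strand, chr17:29090729-29091028: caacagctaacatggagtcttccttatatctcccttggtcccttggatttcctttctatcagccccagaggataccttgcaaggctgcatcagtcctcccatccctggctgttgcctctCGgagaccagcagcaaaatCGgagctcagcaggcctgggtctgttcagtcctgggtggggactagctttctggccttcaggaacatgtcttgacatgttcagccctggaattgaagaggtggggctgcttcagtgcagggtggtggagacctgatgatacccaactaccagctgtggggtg
Cdkn1a, main start, plus strand, chr17:29093519-29093818: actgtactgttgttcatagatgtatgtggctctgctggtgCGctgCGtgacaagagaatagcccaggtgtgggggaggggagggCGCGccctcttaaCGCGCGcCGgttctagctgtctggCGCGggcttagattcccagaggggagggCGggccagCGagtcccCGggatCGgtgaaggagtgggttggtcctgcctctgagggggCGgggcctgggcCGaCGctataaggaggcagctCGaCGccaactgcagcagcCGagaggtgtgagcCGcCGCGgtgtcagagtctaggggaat

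The p19Arf window had 45 CpGs, a GC content of 77.0% and a CpG observed over expected ratio of 1.04, which was above that of 95.9% of the 32851 windows in the table. The p16Ink4a window of the same gene had 12 CpGs and a ratio of 0.44. The upstream Cdkn1a window had 2 CpGs and a ratio of 0.09, against 23 CpGs and 0.79 at the main start. The p19Arf, Cdkn2b and main Cdkn1a windows overlapped H3K4me3 in both conditions, and the p16Ink4a and upstream Cdkn1a windows in neither.

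Promoters reached 1000 bp to either side of each annotated transcript start, and a mark was counted as present when a peak reached at least 1 bp of it. In wt, 7 of the 8 genes had an H3K4me3 peak at the promoter, beside 50.5% of protein-coding genes, and the same 7 had one in wt+TNFα, beside 51.2%. The exception was Cdkn1c. H3K27me3 was called at Cdkn1c and Cdkn2a in both conditions, which was 2 of 8 genes beside 21.7% of protein-coding genes in wt and 29.5% in wt+TNFα. With a −log10 q of at least 2 these were again the 2 genes, beside 13.5% and 20.7%. Cdkn2a was the one gene of the 8 with both marks, beside 5.18% of protein-coding genes in wt and 7.64% in wt+TNFα. Cdkn1a, Cdkn1b, Cdkn2b, Cdkn2c, Cdkn2d and Cdkn3 had H3K4me3 alone in both conditions. None of the 8 genes gained or lost a mark by this count, and 87.9% of protein-coding genes likewise had the same marks in both conditions.

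**Figure D1:**
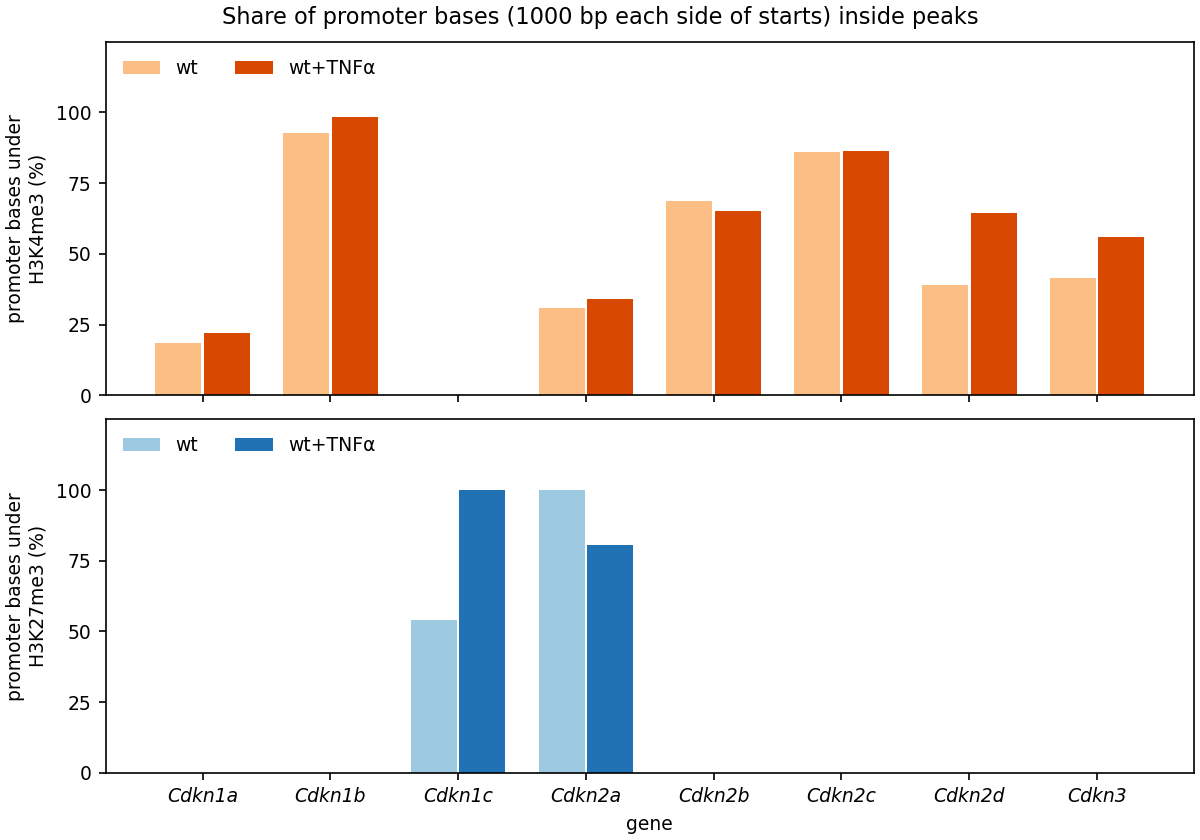
Share of the promoter bases of each gene inside H3K4me3 peaks (upper panel, %) and H3K27me3 peaks (lower panel, %), with light bars for wt and dark bars for wt+TNFα, 1 library each. Cdkn1c had no H3K4me3, and Cdkn1c and Cdkn2a were the 2 genes with H3K27me3.

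By base, the share of a gene's promoters under a mark differed between the conditions at every gene. For H3K4me3, Cdkn1b had the highest share, with 92.8% of 2113 bp in wt and 98.4% in wt+TNFα, and Cdkn1a, whose 3 separate start clusters were pooled, had 18.6% of 6018 bp and 22.0%. Cdkn2d differed most, with 39.1% of 2255 bp in wt and 64.4% in wt+TNFα. Cdkn3 had 41.4% and 56.0%, Cdkn2a 30.7% and 34.1%, and Cdkn2c 86.0% and 86.5%. Cdkn2b had 68.8% in wt and 65.1% in wt+TNFα, a difference that turned with 2000 bp on each side of a start, where it had 53.5% and 55.1%. The shares depend on the window, and with 2000 bp Cdkn1a had 25.3% and 30.4%, Cdkn2a 16.6% and 19.2%, and Cdkn2d 20.7% and 34.1%. Within 1000 bp, H3K4me3 bases called in wt+TNFα alone were found at 6 of the 7 marked genes, from 19 bp at Cdkn2c to 571 bp at Cdkn2d, beside 79.3% of the 10903 protein-coding genes with H3K4me3 in both conditions. Bases called in wt alone were found at Cdkn2b (75 bp), which was 1 of the 7 genes beside 41.0%. When whole peaks were subtracted in place of bases, no gene of the 8 was called for either mark in either direction, since each peak overlapped a peak of the other condition. The differences in covered bases were thus not of whole peaks called in a single condition. At Cdkn1c, described below, a single wt+TNFα H3K27me3 peak spanned 5 wt peaks. The share of protein-coding genes called by whole peaks was not counted.

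The H3K4me3 peaks were compared by their fold enrichment, the ratio of ChIP signal to the local background from the input, which was calculated for each library on its own. In wt the order was Cdkn2c (51.1), Cdkn1b (42.7), Cdkn2b (35.3), Cdkn1a (32.3), Cdkn3 (30.0), Cdkn2a (27.3) and Cdkn2d (21.2), around a list median of 24.6. In wt+TNFα it was Cdkn1a and Cdkn2c (both 50.6), Cdkn2b (37.3), Cdkn3 (37.0), Cdkn2a (34.5), Cdkn1b (30.7) and Cdkn2d (19.6), around a median of 26.97. With 1 library a condition, no neighbours in these orders can be said to differ. The fold enrichment was higher in wt+TNFα at 4 of the 7 genes, beside 60.3% of the protein-coding genes with H3K4me3 in both conditions. Over those genes the log2 ratio of wt+TNFα to wt had a median of 0.10 and quartiles of -0.16 and 0.39. Cdkn1a, whose product p21 is induced by p53, lay above the upper quartile with a log2 ratio of 0.65, higher than 88.9% of these genes. Cdkn1b lay below the lower quartile with a log2 ratio of -0.48, higher than 7.53% of these genes. The log2 ratios of the other 5 genes, from -0.11 at Cdkn2d to 0.34 at Cdkn2a, lay between the quartiles.

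**Figure D2:**
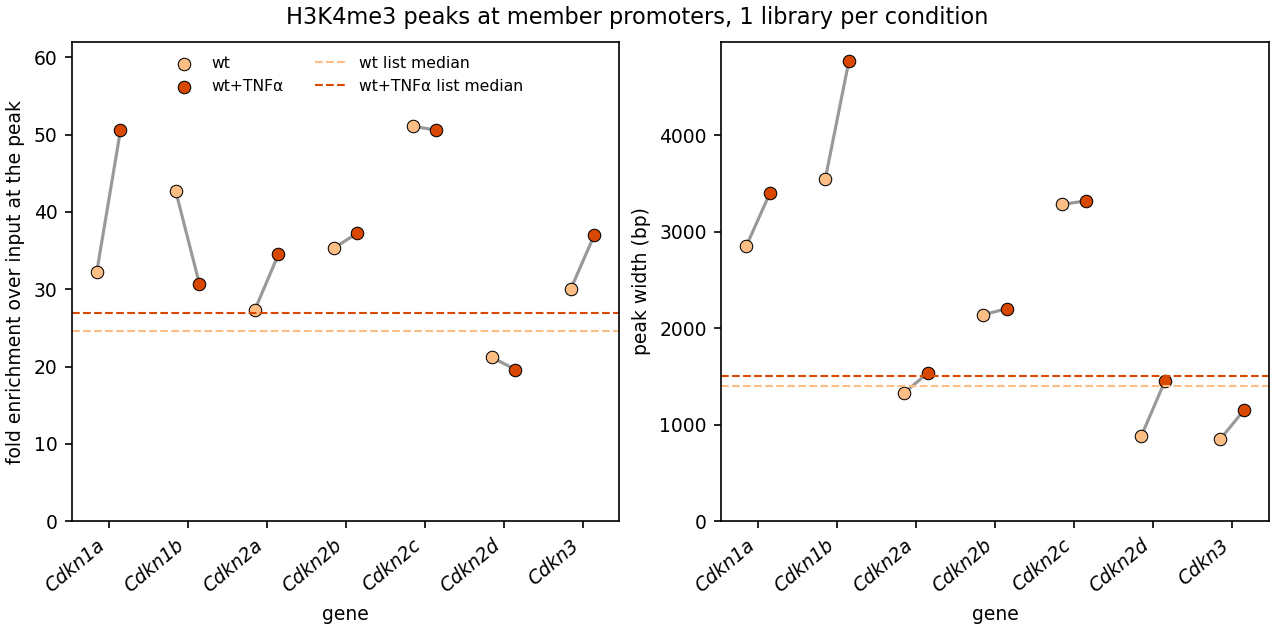
Fold enrichment (left) and width in bp (right) of the H3K4me3 peak at each marked gene, with wt as light and wt+TNFα as dark points joined by a line, and the median of each list as a dashed line. The fold enrichment of Cdkn1a was 32.3 in wt and 50.6 in wt+TNFα, that of Cdkn1b 42.7 and 30.7, and both peaks were wider in wt+TNFα.

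All 7 H3K4me3 peaks were wider in wt+TNFα, beside 75.5% of protein-coding genes with the mark in both conditions. The read totals stated for these libraries were higher in wt+TNFα for H3K4me3 and for the input, and their part in the widths, the fold enrichments and the H3K4me3 bases called in one condition alone was not tested. At Cdkn1b the peak was 3547 bp wide in wt and 4772 bp in wt+TNFα, wider than 96.7% and 98.8% of the peaks in its list. The added bases lay mostly on the side of the gene body, since the peak reached 2586 bp and 3693 bp past the nearest start. The Cdkn1b peak was thus wider and lower in wt+TNFα. At Cdkn2d the widths were 881 bp and 1452 bp, a log2 ratio of 0.72 that exceeded 97.2% of genes. The Cdkn3 peak was 850 bp and 1150 bp wide, among the narrower peaks of its list. Cdkn2b (2140 bp and 2203 bp) and Cdkn2c (3283 bp and 3320 bp) differed by less than the median log2 ratio of 0.09.

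The 8 genes had 24 distinct starts, which formed 14 clusters when starts within 500 bp were joined, and 4 genes had more than 1 cluster. H3K4me3 was called at 8 of the 14 clusters in each condition and H3K27me3 at 5 of 14. The same shares over all annotated start clusters were not counted, so these counts have no background beside them. The 14 clusters are numbered here in the direction of transcription.

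**Figure D3:**
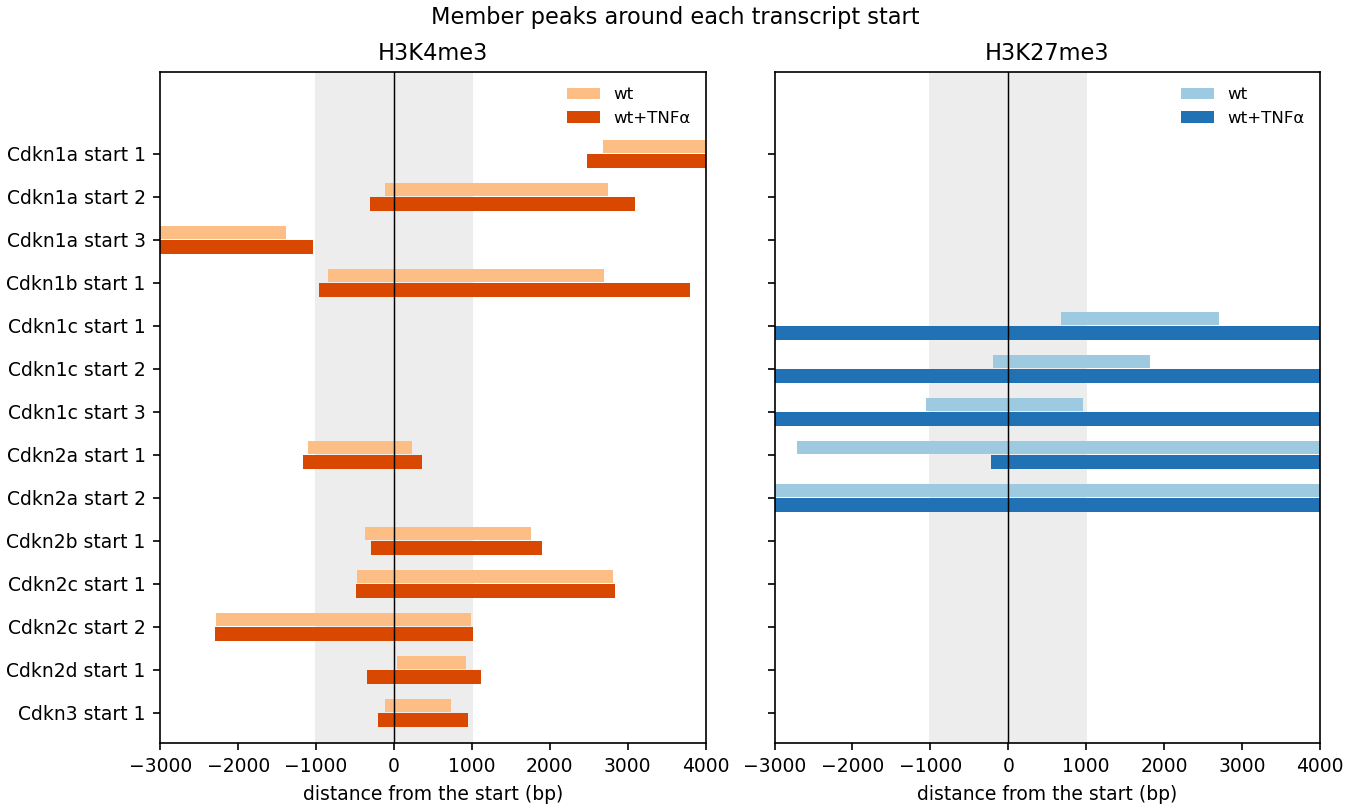
Peaks that reached a promoter of each gene, drawn around each of its start clusters, for H3K4me3 (left) and H3K27me3 (right), in bp from the first start of the cluster along the direction of transcription. Light bars are wt and dark bars wt+TNFα, the grey band marks 1000 bp on each side, and bars are cut off at the edges of the panels. The peaks of Cdkn1a spanned start 2 alone, and at Cdkn2a H3K4me3 lay at start 1 while H3K27me3 covered both.

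Cdkn1a (chr17:29090976-29100727, plus strand) has an upstream start, a main start 2790 bp further on, and another start inside the gene. Its H3K4me3 peak spanned 29093660 to 29096510 in the wt list and 29093456 to 29096857 in the wt+TNFα list, with 2578 bp and 3129 bp of it in intron. These peaks covered 55.7% and 65.9% of the promoter of the main start. The promoters of the upstream and innermost starts had 0 bp of H3K4me3 and of H3K27me3 in either condition. A short transcript annotated on the other strand, AC167363.2 at 29093416 to 29094461, overlaps the same peak, and H3K4me3 cannot tell the strands apart. The upstream window printed above holds a p53-type element of 20 bases at chr17:29090928-29090947, starting 51 bases before the RefSeq start, with its CATG cores in capitals here.
p53-type element: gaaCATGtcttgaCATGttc
It differs from the p53 consensus at 1 base, and 29 of 32851 windows (0.0883%) hold a match on either strand when 1 mismatch is allowed, a tolerance chosen after this window had been seen. The element lay 2712 bp from the nearest edge of the wt H3K4me3 peak and 2508 bp from that of wt+TNFα.

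Cdkn2a and Cdkn2b lie next to each other on the minus strand of chromosome 4 and span 36569 bp together (chr4:89274471-89311039). The start of p19Arf at 89294653 lies 12461 bp before the start of p16Ink4a at 89282192, and the Cdkn2b start lies a further 16386 bp upstream at 89311039. H3K27me3 covered the whole Cdkn2a gene in both conditions, from the p19Arf start through the p16Ink4a exon to the 3′ end, and no base of Cdkn2b. The peak over Cdkn2a ranked high in both lists, with a fold enrichment of 3.86 in wt, above 99.0% of peaks, and 4.84 in wt+TNFα, above 99.9%. In wt the peak ran 2710 bp upstream of the p19Arf start, and in wt+TNFα it ran 227 bp. The other edge lay 1633 bp further inside in wt+TNFα, and the whole peak was 29407 bp wide in wt and 25291 bp in wt+TNFα. Between the genes, H3K27me3 covered 44.8% of 11645 bp in wt and 1.95% in wt+TNFα. The wt share included a separate, weak peak at 89299432 to 89301940 (fold enrichment 2.07, −log10 q 0.654). With a −log10 q of at least 2 the shares between the genes were 23.3% in wt and 1.95% in wt+TNFα. Over both genes and the interval between them the share was 69.5% in wt and 55.8% in wt+TNFα.

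**Figure D4:**
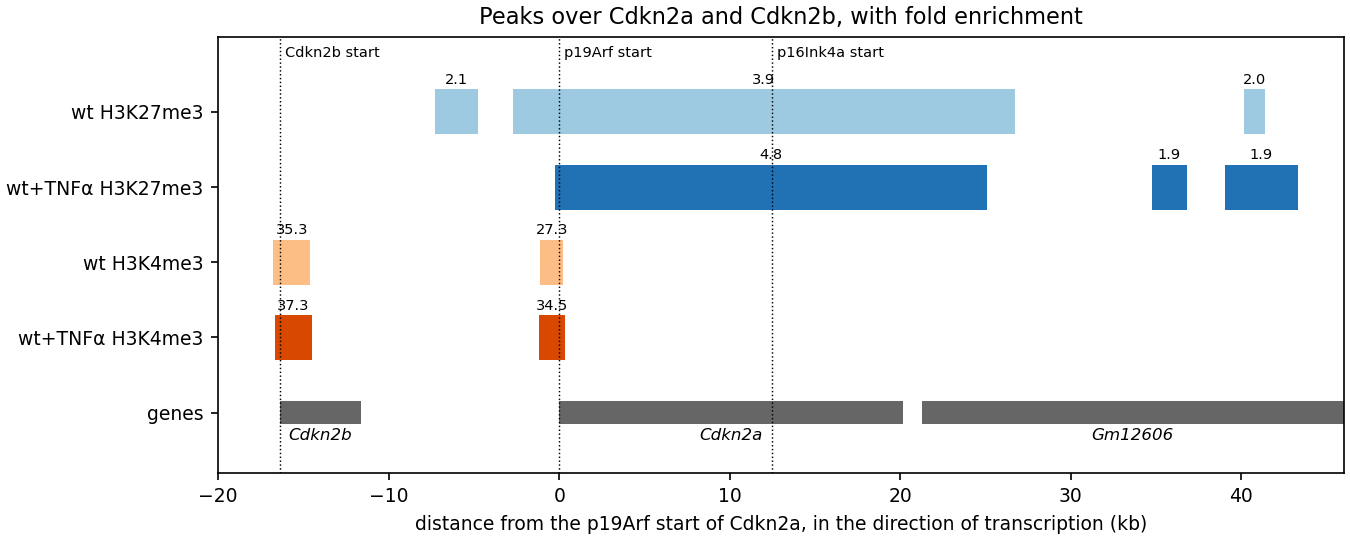
Peaks over Cdkn2a, Cdkn2b and the start of the long noncoding gene Gm12606, in kb from the p19Arf start along the direction of transcription, with one row for each list and the fold enrichment above each bar. The wt H3K27me3 peak extended 2.71 kb upstream of the p19Arf start and the wt+TNFα peak 0.227 kb, while H3K4me3 was called at the p19Arf and Cdkn2b starts and not at the p16Ink4a start.

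The 2 first exons of Cdkn2a differed in H3K4me3. The p19Arf start had an H3K4me3 peak of 1332 bp in wt (89294426 to 89295757) and 1538 bp in wt+TNFα (89294288 to 89295825), with fold enrichments of 27.3 and 34.5. The p16Ink4a start had none in either condition and lay under H3K27me3 over all 2001 bp of its promoter. In wt the H3K4me3 peak at p19Arf lay wholly under H3K27me3. In wt+TNFα 593 bp of it, or 38.6%, lay under H3K27me3 and 945 bp outside. The p19Arf promoter itself was under H3K27me3 over 2001 bp in wt and 1228 bp in wt+TNFα, and under H3K4me3 over 1228 bp and 1366 bp. The 138 bp of H3K4me3 called there in wt+TNFα alone lay on the gene side of the start. They were not called with the 1000 bp upstream of the start alone, with 200 bp required or with whole peaks subtracted. The 773 bp called for H3K27me3 in wt alone made Cdkn2a 1 of the 2 genes with H3K27me3 to have such bases, beside 19.6% of the 4486 protein-coding genes with H3K27me3 in both conditions. Both marks were measured on a mixture of cells, so bases under both peaks need not carry both marks on the same molecule.

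The summit of the p19Arf H3K4me3 peak lay 507 bp upstream of the start in wt and 556 bp in wt+TNFα, and 1104 bp and 1172 bp of the peak lay outside the gene. At Cdkn1a, Cdkn1b, Cdkn2b, Cdkn2d and Cdkn3 the summit lay downstream of the nearest start in both conditions, from 142 bp at Cdkn3 to 919 bp at Cdkn1a. The Cdkn2c summit lay between its 2 starts, 589 bp before the second in wt and 595 bp in wt+TNFα. Of the H3K4me3 peaks with a summit within 1000 bp of a protein-coding start, 0.928% in wt and 0.807% in wt+TNFα had it 500 bp or more upstream of the nearest one, and the median summit lay 170 bp and 178 bp downstream. Beside those of Cdkn2a, the nearest start of another gene to the wt summit was that of Cdkn2b, 15879 bp away.

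Cdkn2b, which encodes p15Ink4b, had a wt H3K4me3 peak at 89309276 to 89311415 and a wt+TNFα peak at 89309138 to 89311340, with enrichments of 35.3-fold and 37.3-fold. Its H3K4me3 peak began 11912 bp from the edge of the H3K27me3 peak over Cdkn2a in wt and 14257 bp from it in wt+TNFα. In the 50000 bp beyond Cdkn2b no H3K27me3 was called in either condition. On the Cdkn2a side, 15.5% of 50000 bp was covered in wt and 25.1% in wt+TNFα, but with a −log10 q of at least 2, which left the Cdkn2a peak alone, the order turned, with 13.0% in wt and 9.76% in wt+TNFα. The one other gene within that distance, the noncoding Gm12606, had H3K27me3 over 2817 bp of its promoters in both conditions and no H3K4me3. Of the flanking protein-coding genes, Mtap, an enzyme of methionine salvage, had H3K4me3 alone and Dmrta1, a transcription factor gene, H3K27me3 alone, in both conditions.

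Of the 908 protein-coding genes that had both marks in both conditions, Cdkn2a included, Bcas3 and Ostm1 were among the 3 nearest to Cdkn2a in the log2 fold enrichments of the 4 lists, at Euclidean distances of 0.30 and 0.34. Bcas3 had fold enrichments of 3.9 and 4.34 for H3K27me3 and of 29.6 and 29.6 for H3K4me3 in wt and wt+TNFα.

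Cdkn1c (chr7:143458339-143461050, minus strand) encodes p57 and is an imprinted gene expressed from the maternal allele. No H3K4me3 peak lay at any of its 3 start clusters. In wt an H3K27me3 peak of 2021 bp (143458352 to 143460372, fold enrichment 3.08, −log10 q 4.84) lay over the gene body and covered 54.0% of the promoters. It reached 18.3% of the promoter at the first cluster, 60.2% at the second and 98.0% at the third. In wt+TNFα a single peak of 33115 bp (143433168 to 143466282, fold enrichment 3.47, −log10 q 11.1) covered all 3 promoters in full. The 1719 bp called in wt+TNFα alone made Cdkn1c 1 of the 2 genes with H3K27me3 to have such bases, beside 56.5% of protein-coding genes with H3K27me3 in both conditions. In wt the same 33115 bp held 5 separate peaks, which covered 73.4% of it with 4 gaps of 1478 bp to 2739 bp, and 2 of the 5 had a −log10 q of at least 2. The noncoding Gm44732 lies antisense within Cdkn1c, so its promoter shared these bases. The wt+TNFα H3K27me3 list also covered more of the autosomes as a whole, and its part in the difference at Cdkn1c was not tested.

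**Figure D5:**
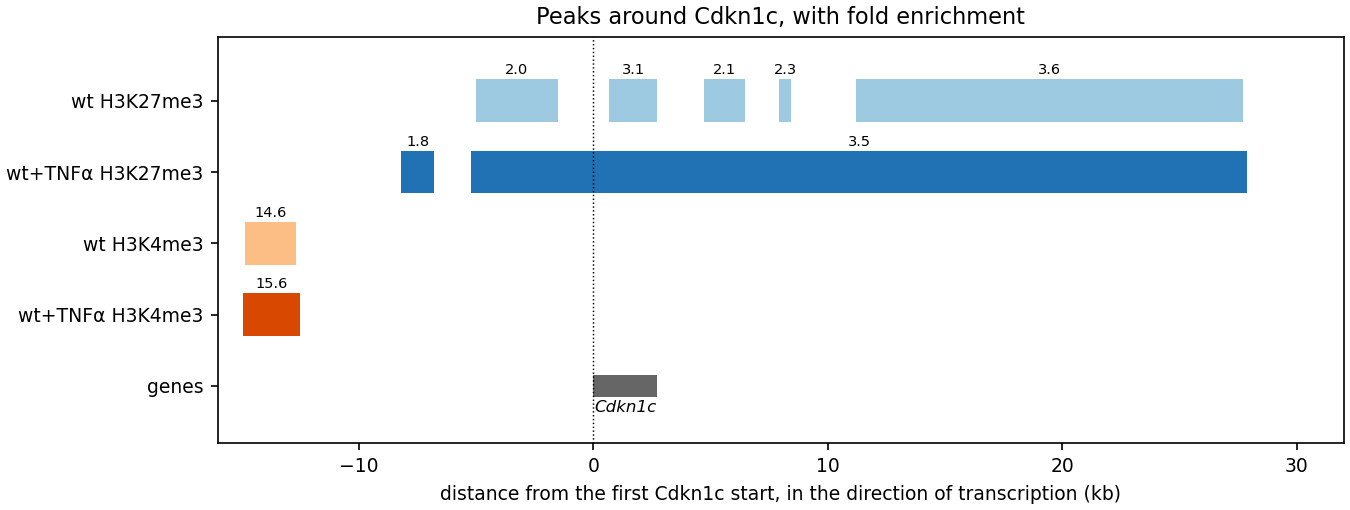
Peaks around Cdkn1c in kb from its first start along the direction of transcription, with one row for each list and the fold enrichment above each bar. H3K27me3 formed 5 peaks in wt where wt+TNFα had 1 peak of 33.1 kb, and the nearest H3K4me3 peaks lay 12.7 kb (wt) and 12.5 kb (wt+TNFα) upstream of the gene.

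The other INK4 genes carried H3K4me3 alone. Cdkn2c (chr4:109660876-109667189, minus strand) had one peak over both of its starts, which covered 73.7% and 99.6% of their promoters in wt and 74.2% and 100% in wt+TNFα. Its fold enrichments of 51.1 and 50.6 lay above 96.3% and 96.2% of their lists. Cdkn2d (chr9:21288410-21291407, minus strand) had the weakest of the peaks, with fold enrichments below the list medians in both conditions. In wt the Cdkn2d peak (21290485 to 21291365) ended inside the gene, and in wt+TNFα (21290296 to 21291747) 340 bp lay upstream of the first start. Cdkn3 (chr14:46760541-46771669, plus strand) had peaks from 46760422 to 46761271 and from 46760337 to 46761486. Cdkn1b (chr6:134920401-134925513, plus strand) had peaks from 134919553 to 134923099 and from 134919435 to 134924206. No H3K27me3 was called within 10000 bp of Cdkn1b, Cdkn2c or Cdkn2d in either condition. Around Cdkn1a and Cdkn3, 748 bp and 837 bp within 10000 bp were called in wt+TNFα and 0 bp in wt, all in peaks with a −log10 q under 2.

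Over the 10 promoter windows, 7 had a CpG observed over expected ratio of 0.6 or more, beside 11765 of all 32851 windows. All 7 overlapped H3K4me3 in both conditions. Of the 3 windows below 0.6, the second Cdkn2c start (0.55) overlapped H3K4me3, and the p16Ink4a and upstream Cdkn1a starts did not. Over all windows of the table, 77.2% of those at 0.6 or more and 9.93% of those below overlapped H3K4me3 in wt, and 78.1% and 10.6% in wt+TNFα. The GC box GGGCGG, searched on both strands, was found in 8 of the 10 windows, beside 35.7% of all windows, with 5 matches at Cdkn2d, 4 at Cdkn3 and the first Cdkn2c start and 3 at p19Arf. The exact letters TATAAA, a form of the TATA box, were in none of the 10, beside 13.6% of all windows. Looser forms, such as the tataag in the main Cdkn1a window printed above, were not searched. The exact search therefore cannot show that a start lacks a TATA box. The E2F-type element, TTTCGCGC or TTTGGCGC, was in none of the 10, beside 0.813%. When TTTCCCGC and TTTGCCGC were added, a search chosen after these results were seen, 1 of the 10 windows had a match, beside 2.26%. It was TTTCCCGC at chr4:89294711-89294718 in the p19Arf window. An NF-κB element was matched at Cdkn2d and Cdkn3, beside 8.46% of all windows, and the unmismatched p53 consensus in none, beside 0.00913%. A match in these windows is a description of the sequence alone.

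The CDK pathway was described by a list of 39 other genes, chosen for their roles as kinases, cyclins, retinoblastoma proteins, E2F factors, CDC25 phosphatases and the kinases that oppose them, Skp2 and CKS proteins, and p53 and its regulators. H3K4me3 was called at 38 of the 39 promoters in both conditions, beside the 50.5% and 51.2% of protein-coding genes given above, and H3K27me3 at 3 of 39, beside 21.7% and 29.5%. None of the 39 gained or lost a mark, and 87.9% of protein-coding genes likewise had the same marks in both conditions. With a −log10 q of at least 2, H3K27me3 was called at 1 of the 39 in wt (E2f6) and 2 in wt+TNFα (E2f6 and Ccna1), so that 38 of the 39 had the same marks in both conditions, beside 89.6%. The exception for H3K4me3 was Ccna1, a cyclin of germ cells, which had H3K27me3 alone with enrichments of 2.24-fold (wt, −log10 q 1.41) and 2.38-fold (wt+TNFα, −log10 q 3.83). E2f6 and E2f7, both repressive members of the E2F family, had both marks in both conditions. The H3K27me3 fold enrichments were 2.54 and 2.47 at E2f6, and 2.24 and 2.07 at E2f7, in each case above the median of the list. Their −log10 q was 2.23 and 3.86 at E2f6, and 1.19 and 1.95 at E2f7, which at a threshold of 2 had H3K4me3 alone. The H3K4me3 fold enrichment had a median of 34.5 in wt and 34.1 in wt+TNFα over the 38 genes, of 32.3 and 37.0 over the 7 marked inhibitor genes and of 27.8 and 30.6 over the 10903 protein-coding genes with the mark in both. The ratio of wt+TNFα to wt had a median of 1.05 over the 38 genes with a range of 0.520 to 2.11, so the ratios of Cdkn1a (1.57) and Cdkn1b (0.719) lay within the range of the pathway list.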

How the data were processed

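H3K4me3 and H3K27me3 peak lists of wt and wt+TNFα organoids were used, 1 of each. According to the methods and the submitters' processing notes, the authors aligned reads to GRCm38/mm10 with BWA (version 2.2), removed duplicates with SAMtools (1.11) and called peaks against the input with MACS2 (2.1.0), though another of the study's texts names a different MACS2 version. The fold enrichment of the deposited lists is a ratio of ChIP signal to local background, and p-values and q-values were deposited by the authors as −log10. For the H3K27me3 lists, called as broad regions, these values may be averages over a region. Values of regions of different width are then not strictly comparable. The score column that the authors deposited is a display value and was not used. All deposited lists but that of wt+TNFα H3K27me3 are named for a spike-in, so their processing may differ. Reads and inputs were not analysed here, so depth was not measured from the files. By the read totals in the reporting form that accompanies the paper, the H3K4me3 library and the input of wt+TNFα were sequenced well above those of wt, the H3K27me3 libraries were nearly equal, and all 4 ChIP libraries exceeded the targets on the labels, which were 40000000 reads for H3K4me3 and 60000000 for H3K27me3.

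Peaks were made 1-based, merged within a list and set against 141767 GENCODE transcript starts with Python (3.11.15), numpy (2.4.6) and scipy (1.17.1). Figures were drawn with matplotlib (3.10.9). Bases unique to a condition were found by subtraction, checked on simulated lists in which 100 of 100 planted gains and 100 of 100 planted losses of H3K4me3 were recovered. The gains were peaks added at unmarked promoters, and the losses were whole promoters cut out. The check thus covers the interval arithmetic and not small shifts of peak edges. Groups came from the labels. Shares over protein-coding genes were counted by symbol. Named genes were the 8 genes, those overlapping or starting within 1000 bp of one, those within 50000 bp of or next to the Cdkn2a-Cdkn2b interval, pathway genes with a changed mark, and the 3 nearest to Cdkn2a, of which 1 is not reported here. Ccna1, E2f6 and E2f7 fall outside this rule and were named after their values were seen. The genes and lists were chosen with earlier results of these data known. The 11 alternatives varied the promoter, the starts, the overlap, the subtraction, the −log10 q threshold and the list size, and the wider E2F search and the −log10 q threshold for surroundings, the pathway list and protein-coding genes were added after the data were seen.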

Additional observations from a re-analysis of the deposited data

How the results depend on the processing

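The number of genes with H3K27me3 at the promoter was 2 in both conditions under all alternatives that apply to it, and H3K4me3 was at 6 or 7 genes. It was 6 with 1 start per gene, where the upstream start stood for Cdkn1a, and with peaks above the median −log10 q, where Cdkn2d was not called. Subtracting whole peaks gave 0 genes for each mark in each direction. Requiring 200 bp gave 3 genes with H3K4me3 bases in wt+TNFα alone and 0 with such bases in wt alone. The count in wt+TNFα alone was 7 with 2000 bp on each side. It was 5 with 1 start per gene, with 500 bp, with upstream bases alone and with peaks above the median −log10 q. Shares of protein-coding genes under these settings, and with whole peaks, were not counted. The H3K27me3 share of the Cdkn2a-Cdkn2b interval in wt was 62.6% with peaks above the median −log10 q and with a −log10 q of at least 2, since the weak peak between the genes was left out. Of 100 values counted over the genes or the interval under the alternatives, 92 kept within 1.5 times the count or within the counting interval of the share. Some of the 100 could not move, since a filter on H3K27me3 leaves H3K4me3 values as they were. Equal list sizes likewise trimmed the larger wt+TNFα lists alone. The 92 is therefore not a measure of how robust the values are. Of 288 promoter shares of single genes, 61 moved beyond the counting interval, 48 of them with another promoter size, 11 with other starts and 2 with another threshold. The counting interval treats each base as an independent trial, which neighbouring bases under a peak are not. It served to label a change and does not measure the uncertainty of a share. The share of Cdkn2a promoters under H3K27me3 was lower in wt+TNFα, and that of Cdkn1c higher, under all 10 settings run, the reported one included. The H3K4me3 share of Cdkn1a in wt ran from 0% (1 start per gene) to 25.3% (2000 bp on each side), and that of Cdkn2a from 16.6% (2000 bp) to 61.4% (1 start per gene). That of Cdkn2b was lower in wt+TNFα under 9 settings and higher under 1, with 2000 bp on each side, where 138 bp were called in wt+TNFα alone. With a −log10 q of at least 2, the difference of wt+TNFα minus wt in the H3K27me3 share of the 50000 bp on the Cdkn2a side was -3.27 percentage points in place of 9.6, and the CDK pathway genes with H3K27me3 were 1 in wt and 2 in wt+TNFα in place of 3. The deeper sequencing of H3K4me3 and of the input in wt+TNFα, 1 library per list and separate calling of each list limit what an edge can show, and whether a difference exceeds the spread between cultures cannot be told. No paired analysis was possible because there was 1 library of a mark in each condition and no test was made.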

Other observations

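Beyond its promoter peak, Cdkn1b was followed by a further H3K4me3 peak downstream of the gene, 3192 bp wide at 134926460 to 134929651 in wt (fold enrichment 9.54) and 3933 bp wide in wt+TNFα (13.0). A narrow H3K4me3 peak of 509 bp upstream of Cdkn1b, at 134916753 to 134917261, was called in wt+TNFα alone with a fold enrichment of 6.11. Within 10000 bp on each side of Cdkn1b, H3K4me3 covered 6739 bp in wt and 9214 bp in wt+TNFα. Within 50000 bp on each side of Cdkn1a, H3K27me3 covered 1.89% in wt and 22.1% in wt+TNFα, and within the same distance of Cdkn3 11.1% and 24.0%. These were the largest rises of the 8 genes. The shares were 0% and 0% at Cdkn1b, 23.7% and 33.6% at Cdkn1c and 27.6% and 27.4% at Cdkn2a. They were 30.5% and 26.1% at Cdkn2b, 0% and 6.19% at Cdkn2c, and 9.81% and 11.1% at Cdkn2d. The 4 wt+TNFα peaks within 30000 bp of Cdkn1a had fold enrichments of 1.77 to 1.97 and a −log10 q of 0.918 to 1.56. With a −log10 q of at least 2 the shares were 0% and 0.746% around Cdkn1a, and 5.3% and 15.4% around Cdkn3. The relation of these values to the larger wt+TNFα H3K27me3 list was not tested.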
